A study of Mus musculus with 12 samples.

Results

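The genes described here take up, carry, store, export or sense iron in macrophages. They are 10 of the 16920 genes listed for each library, chosen by name as Tfrc, Steap4, Slc11a2, Slc11a1, Fth1, Ftl1, Lcn2, Hmox1, Slc40a1 and Aco1, and all 10 were among the 12064 genes that passed the filter on low counts. They were measured by RNA sequencing in peritoneal macrophages of C57BL/6 mice aged 6 to 10 weeks, either wild type (WT) or labelled as Ythdf1-/- knockouts (KO, which names the label throughout). The study asked how YTHDF1, a protein that binds N6-methyladenosine in RNA, acts in macrophages that meet lipopolysaccharide (LPS) of bacteria. Cells were drawn into the peritoneum by starch broth according to the series record and by thioglycollate according to the methods of the study, kept overnight in culture, and then given PBS or 1 µg/mL LPS for 6 h. Each of the 4 groups, WT PBS, WT LPS, KO PBS and KO LPS, had 3 libraries that the labels call biological replicates.

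Macrophages recycle most of the body's iron by engulfing old red cells, opening their heme and returning the metal to plasma. Iron enters bound to transferrin or in engulfed heme, is stored inside ferritin shells and leaves through ferroportin. During infection macrophages hold iron back from microbes, and translation and decay of several of these mRNAs are set by iron regulatory proteins that bind a hairpin, the iron-responsive element (IRE), in the untranslated region (UTR).

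IREs are shown first because they are known as control elements of several iron mRNAs, and some of the members hold one. They were searched for in the UTRs of the GENCODE M21 annotation of GRCm38 as a bulged C, a stem of 5 base pairs and a loop of the letters CAGTGN. In the stem, a G facing a T (U in RNA) counted as paired. Capitals mark the bulged C and the loop, and each line gives 29 bases from 5′ to 3′ on the strand of the gene.
Fth1 5′ UTR, chr19:9982732-9982760, plus strand: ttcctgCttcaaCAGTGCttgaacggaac
Ftl1 5′ UTR, chr7:45459779-45459807, minus strand: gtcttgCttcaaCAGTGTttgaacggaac
Slc40a1 5′ UTR, chr1:45925465-45925493, minus strand: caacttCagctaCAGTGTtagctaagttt
Tfrc 3′ UTR, chr16:32631219-32631247, plus strand: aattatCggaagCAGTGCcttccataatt
Tfrc 3′ UTR, chr16:32631598-32631626, plus strand: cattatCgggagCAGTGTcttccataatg
Tfrc 3′ UTR, chr16:32631663-32631691, plus strand: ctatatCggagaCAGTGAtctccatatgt
Tfrc 3′ UTR, chr16:32631710-32631738, plus strand: aattatCgggaaCAGTGTttcccataatt
Slc11a2 3′ UTR, chr15:100395153-100395181, minus strand, with 1 mispair in the stem: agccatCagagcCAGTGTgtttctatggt

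With no mispair allowed, 155 of the 21760 genes searched (0.712%) held such a hairpin, among them 4 of the 10 members. With 1 mispair allowed, 1028 genes (4.72%) did, among them 5 members. The hairpins of Fth1, Ftl1 and Slc40a1 lie before the coding sequence, where bound protein is known to block translation, and those of Tfrc lie after it, where bound protein is known to slow decay. A match is a description of the letters, and no binding was measured here.

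Total counts lay between 21546274 and 22017005 per library, and the floor of 3 counts came to 0.105 to 0.187 CPM (the normalised read count of edgeR with TMM scaling). Ythdf1 mRNA, the target of the knockout, was not lost in the libraries labelled KO. Its means were 43.5 ± 1.54 CPM (SD, n = 3) in WT PBS, 57.2 ± 1.53 in KO PBS, 201 ± 9.37 in WT LPS and 198 ± 6.94 in KO LPS, so every genotype comparison made here rests on the labels. Counts per gene cannot show whether the protein was made. The study reports genotyping of the knockout line and a western blot of YTHDF1 in liver and spleen of chimeric mice. All 8 macrophage markers were present, with summed levels of 17170 to 19943 CPM over the 12 libraries. The WT LPS replicate 1 stood apart from replicates 2 and 3, with a mean chi-square per gene of 33.6 and 26.2 against 3.09 between those replicates. Within KO LPS, replicates 2 and 3 differed by 17, against 7.44 and 6.11 for the other pairs and 2.78 to 4.73 within the PBS groups. LPS also moved the composition of the libraries. Against TMM, the upper-quartile scaling moved the median change of all genes with LPS by -0.31 in WT and -0.36 in KO, and totals alone moved it by -0.66 and -0.80 on the log2 scale. In bulk samples, fewer cells of a type and less RNA per cell cannot be told apart.

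LPS moved the iron genes in both directions under either label. The transporter Slc11a2, the ferritin heavy chain Fth1, the siderophore-binding protein Lcn2 and the metalloreductase Steap4 rose, while the transferrin receptor Tfrc, the exporter Slc40a1, the iron sensor Aco1 and the ferritin light chain Ftl1 fell. In WT, 4 of the 10 members were higher and 5 lower with LPS, against 36.5% higher and 40.2% lower among all genes tested. In KO, 5 were higher and 4 lower, against 38.8% and 41.1%. These shares lay near those of all genes. The median absolute log2 change of the members was 1.28 in WT and 1.5 in KO, beside 0.691 and 0.805 over all genes. Markers of cell types also moved with LPS, in both directions, and their part in the changes of the iron genes was not tested. The macrophage markers Adgre1 and Csf1r gave 0.94 and -0.54 in WT and 1.21 and -1.12 in KO. The fibroblast marker Col1a2 gave 0.67 and 0.76, and the scarce B cell marker Cd79b -2.70 and -2.27, in WT and KO.

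**Figure D1:**
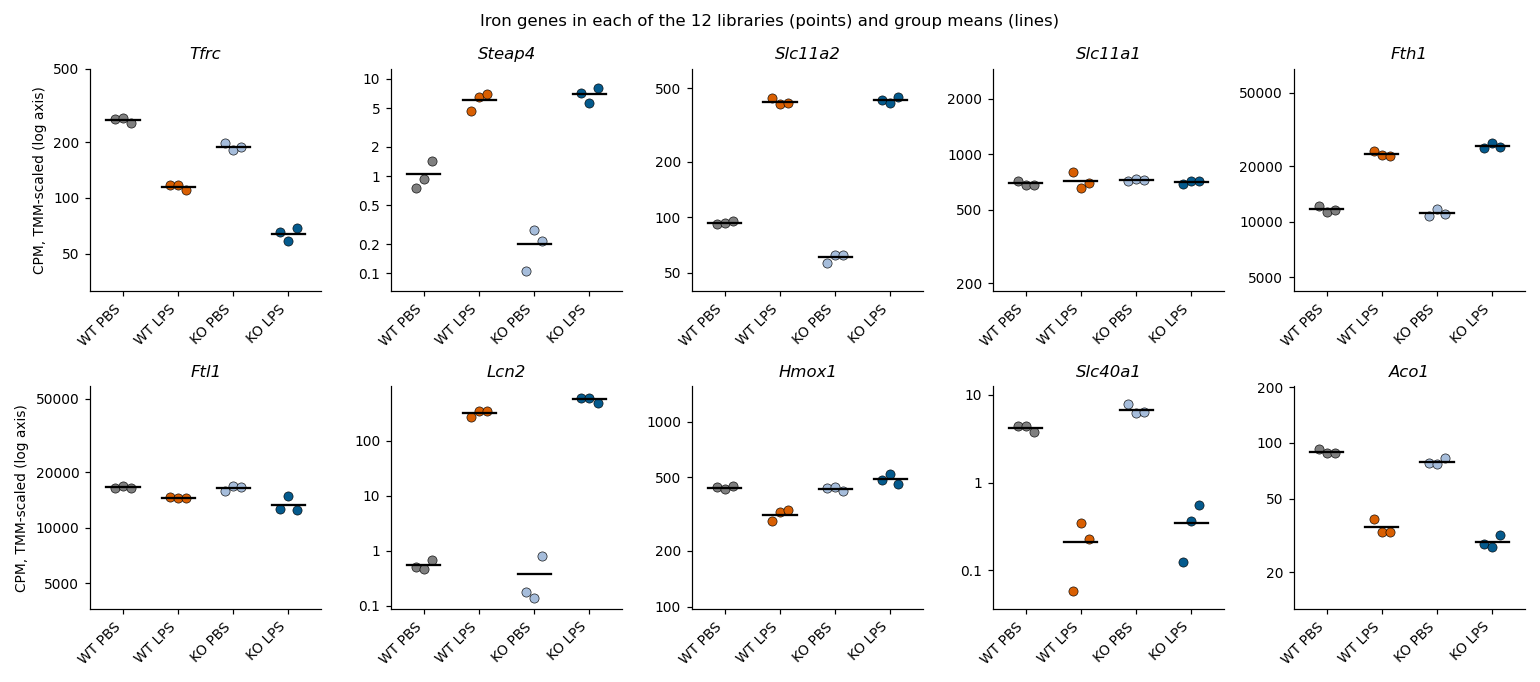
CPM of the 10 iron genes on log axes, with 1 point per library, a line at the mean of each group of 3 libraries, and the 4 groups along the horizontal axis of each panel. Tfrc falls from 254 to 270 CPM in WT PBS to 110 to 118 in WT LPS, Slc11a2 rises, and Slc11a1 stays between 658 and 803 CPM in all 12 libraries.

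**Figure D2:**
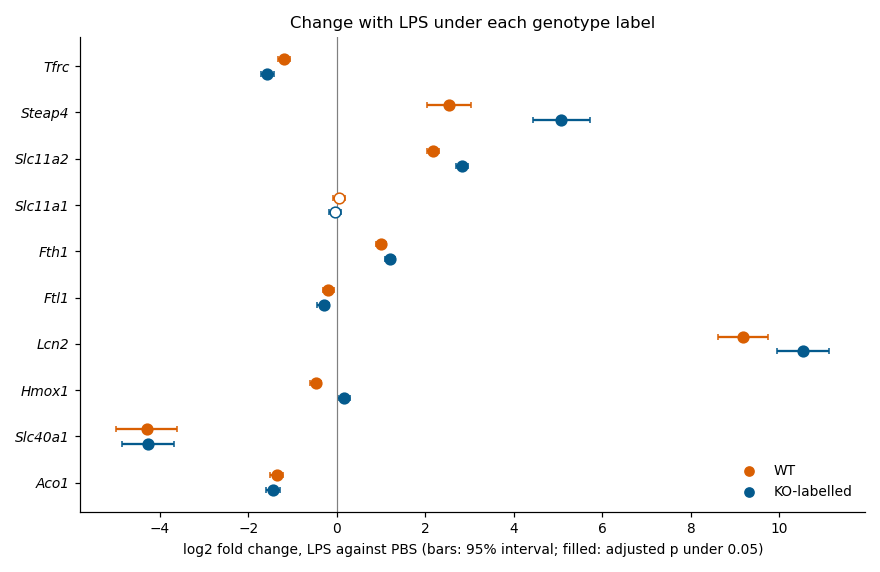
Log2 fold change of each iron gene between LPS and PBS in WT (orange) and KO-labelled (blue) libraries, with bars for the 95% interval and filled points where the adjusted p was under 0.05. Lcn2 shows the largest rise among the 10 genes, at 9.18 in WT and 10.55 in KO, and Slc40a1 the largest fall, at -4.30 and -4.26.

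Uptake was examined first. Tfrc (gene 22042, chr16:32608920-32632794) encodes the transferrin receptor, which carries iron-loaded transferrin into the cell. It stood at 268, 270 and 254 CPM in WT PBS and at 118, 118 and 110 CPM in WT LPS. In KO PBS it stood at 198, 181 and 189 CPM, and in KO LPS at 65.1, 58.2 and 68.9 CPM. No 2 groups overlapped, and the order from high to low was WT PBS, KO PBS, WT LPS and KO LPS. The log2 fold change of Tfrc with LPS was -1.20 ± 0.0651 in WT (SE, adjusted p = 2.82e-11) and -1.57 ± 0.0671 in KO (adjusted p = 8.76e-13). KO against WT gave -0.48 ± 0.0635 under PBS (adjusted p = 5.23e-05) and -0.85 ± 0.0672 under LPS (adjusted p = 1.18e-07). The fall with LPS was larger in KO, and the interaction term that tests this was -0.37 ± 0.0922 (adjusted p = 0.0113).

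Steap4 (gene 117167, chr5:7960457-7982213) encodes a metalloreductase that turns ferric into ferrous iron. It was scarce, at 0.759, 0.93 and 1.43 CPM in WT PBS and 0.105, 0.281 and 0.213 CPM in KO PBS. With LPS it reached 4.63, 6.55 and 7.05 CPM in WT and 7.12, 5.69 and 7.96 CPM in KO. The PBS groups did not overlap, with KO below WT, whereas the LPS groups did. The rise with LPS was 2.54 ± 0.229 in WT (SE, adjusted p = 2.54e-08) and 5.08 ± 0.306 in KO (adjusted p = 9.78e-11), with an interaction of 2.54 ± 0.457 (adjusted p = 0.00121). Under PBS, KO against WT gave -2.35 ± 0.415 (adjusted p = 0.000642), on sums of 87 counts in WT and 17 in KO, a ratio of 0.192 with an exact 95% counting interval of 0.107 to 0.325. Under LPS the difference was 0.19 (95% interval -0.21 to 0.58, adjusted p = 0.449).

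Markers of fibroblasts moved between the labels as Steap4 did under PBS, and their part in it was not tested. All 5 fibroblast markers (Col1a1, Col1a2, Col3a1, Dcn and Pdgfra) were in the table, and none was at 0 in any group. Their sum was 75.1 to 88.6 CPM in WT PBS and 32.9 to 46.2 in KO PBS, and 118 to 132 in WT LPS and 57 to 69.5 in KO LPS. The sum was thus lower in KO under LPS as well, where the Steap4 groups overlapped.

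The divalent metal transporters followed. Slc11a2 (gene 18174, chr15:100387898-100425072) encodes DMT1, which moves ferrous iron out of the endosome. It stood at 91.6, 92.9 and 95.3 CPM in WT PBS and at 56.8, 62.9 and 62.5 CPM in KO PBS. LPS brought it to 441, 409 and 418 CPM in WT and to 430, 415 and 448 CPM in KO. The labels were apart under PBS and overlapped under LPS. The rise was 2.18 ± 0.0592 in WT (SE, adjusted p = 2.14e-15) and 2.83 ± 0.061 in KO (adjusted p = 9.03e-17), and the interaction was 0.65 ± 0.0811 (adjusted p = 5.29e-05). The KO label gave -0.62 ± 0.0584 under PBS (adjusted p = 1.55e-06) and 0.031 under LPS (95% interval -0.089 to 0.15, adjusted p = 0.696).

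Slc11a1 (gene 18173, chr1:74375195-74386062) encodes NRAMP1, which in its working form is a phagosomal transporter that draws metal away from engulfed microbes. The allele carried by this mouse strain was not examined, and counts per gene cannot show whether its protein works. Slc11a1 mRNA stood at 717, 683 and 685 CPM in WT PBS and 803, 658 and 700 CPM in WT LPS. In KO PBS it stood at 718, 734 and 728 CPM, and in KO LPS at 694, 720 and 713 CPM. Every value lay between 658 and 803 CPM. No comparison of Slc11a1 passed the threshold, with LPS changes of 0.051 in WT (95% interval -0.086 to 0.19, adjusted p = 0.48) and -0.036 in KO (-0.17 to 0.10, adjusted p = 0.617). It was called lower with LPS under the upper-quartile scaling (-0.26 in WT and -0.39 in KO) and with totals alone (-0.61 and -0.84). The ratio of Slc11a2 to Slc11a1 counts, which needs no scaling, was 0.134 ± 0.00589 (SD, n = 3) in WT PBS, 0.589 ± 0.0368 in WT LPS, 0.0836 ± 0.00382 in KO PBS and 0.609 ± 0.0277 in KO LPS. Slc11a1 and Slc11a2 carried decimals in all 12 libraries, as did Ftl1 and Aco1, so part of their counts was estimated.

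The 2 chains of ferritin parted company. Fth1 (gene 14319, chr19:9980598-9985098) encodes the heavy chain, which oxidises iron for storage. It stood at 12142, 11253 and 11630 CPM in WT PBS and 24209, 22969 and 22728 CPM in WT LPS. In KO PBS it stood at 10716, 11701 and 10982 CPM, and in KO LPS at 24940, 26539 and 25491 CPM. All 6 LPS libraries lay above all 6 PBS libraries, and the KO LPS libraries above those of WT LPS. Fth1 rose by 1.00 ± 0.0557 in WT (SE, adjusted p = 4.08e-11) and 1.20 ± 0.0559 in KO (adjusted p = 2.69e-12). The KO label gave 0.14 ± 0.0551 under LPS (adjusted p = 0.0543) and the interaction was 0.21 ± 0.078 (adjusted p = 0.0783), so neither passed. Without WT LPS replicate 1 both passed, at 0.17 and 0.24, and DESeq2 called the first (0.14, adjusted p = 0.0333).

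Ftl1 (gene 14325, chr7:45457944-45459884) encodes the light chain, which helps to form the mineral core. It stood at 16487, 16757 and 16442 CPM in WT PBS and 14605, 14465 and 14565 CPM in WT LPS. In KO PBS it stood at 15794, 16904 and 16565 CPM, and in KO LPS at 12598, 14811 and 12495 CPM. The LPS libraries lay below the PBS libraries under each label. The change was -0.19 ± 0.0626 in WT (SE, adjusted p = 0.0123) and -0.30 ± 0.0626 in KO (adjusted p = 0.000296). The WT call was lost under RLE scaling (-0.14) and without WT PBS replicate 1 (-0.16). Between labels, Ftl1 gave -0.012 under PBS (95% interval -0.15 to 0.12, adjusted p = 0.914) and -0.13 under LPS (-0.26 to 0.0038, adjusted p = 0.113). The LPS difference was called with totals alone (-0.22), under the upper-quartile scaling (-0.20) and without KO LPS replicate 2 (-0.21).

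Expressed as a share of all counts, which uses no scaling factor, Fth1 made up 1.48% ± 0.0487 (SD, n = 3) of counts in WT PBS and 1.86% ± 0.0342 in WT LPS. In KO it made up 1.46% ± 0.0663 with PBS and 1.93% ± 0.0666 with LPS. Ftl1 went the other way, from 2.1% ± 0.0283 to 1.16% ± 0.0149 in WT and from 2.15% ± 0.0711 to 1% ± 0.104 in KO. The number of Fth1 counts per Ftl1 count was 0.705 ± 0.0325 in WT PBS and 0.678 ± 0.0146 in KO PBS, and 1.6 ± 0.0501 in WT LPS and 1.94 ± 0.129 in KO LPS. The light chain led in all 6 PBS libraries and the heavy chain in all 6 LPS libraries, and the KO LPS libraries (1.79 to 2.04) lay above those of WT LPS (1.56 to 1.66), a difference that was not tested. Near-identical ferritin pseudogenes exist in the annotation and were not analysed here, so reads from them may be held in these rows.

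**Figure D3:**
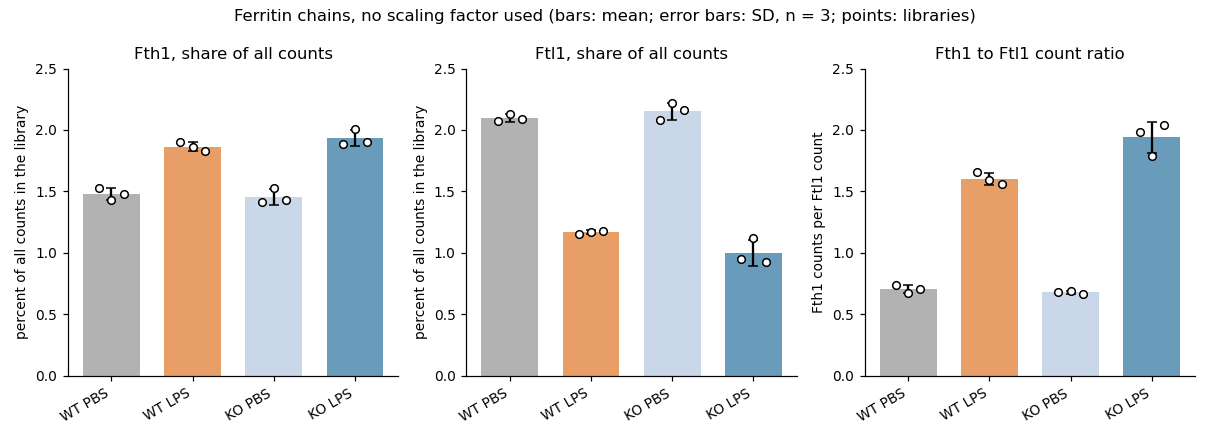
Share of all counts in percent for Fth1 and Ftl1, and Fth1 counts per Ftl1 count, by group, with bars for the mean, error bars for the SD (n = 3) and points for the libraries. The ratio lies at 0.663 to 0.736 in the 6 PBS libraries and at 1.56 to 2.04 in the 6 LPS libraries.

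Lcn2 (gene 16819, chr2:32384633-32388252) encodes lipocalin 2, a secreted protein that traps the siderophores with which bacteria collect iron. It stood near the floor with PBS, at 0.506, 0.465 and 0.679 CPM in WT and 0.175, 0.14 and 0.815 CPM in KO. With LPS it reached 272, 345 and 351 CPM in WT and 603, 610 and 498 CPM in KO. The LPS groups did not overlap, with KO above WT, while the PBS groups did. The rise with LPS was 9.18 ± 0.258 in WT (SE, adjusted p = 3.41e-12) and 10.55 ± 0.27 in KO (adjusted p = 1.13e-12). Under LPS Lcn2 was higher in KO by 0.82 ± 0.147 (adjusted p = 0.00084), a 1.77-fold difference. Under PBS the labels gave -0.55 (95% interval -1.83 to 0.74, adjusted p = 0.55), and the interaction of 1.37 ± 0.606 did not pass (adjusted p = 0.151).

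The PBS values of Lcn2 in KO turned on 1 library. Replicate 3 held 23 counts, and replicates 1 and 2 held 5 and 4. Without replicate 3, the rise of Lcn2 with LPS in KO was 11.77 in place of 10.55, the KO label gave -1.75 under PBS (adjusted p = 0.0323) and the interaction was 2.56 (adjusted p = 0.00472). The same library also differed from the other KO PBS libraries in the 5 skeletal muscle markers, which summed to 0.106 CPM there and to 14.6 and 18.8 CPM in the other two, and which were also near 0 in KO LPS. That difference was not tested against Lcn2. Lcn2 is also a granule protein of neutrophils. Of 10 neutrophil markers, 8 were in the table, and the defining S100a9, Retnlg, Mpo and Elane had at most 3 counts in every library. The list summed to 103 to 107 CPM in WT PBS, 86.4 to 88.8 in WT LPS, 151 to 154 in KO PBS and 112 to 121 in KO LPS, nearly all of it Mmp8, which fell with LPS. S100a8, another neutrophil marker of that list, moved as Lcn2 did. It rose with LPS by 0.95 in WT (adjusted p = 0.000549) and 1.21 in KO (adjusted p = 2.81e-05), and under LPS it was higher in KO by 0.49 (adjusted p = 0.049), with 7.58 to 9.59 CPM in WT and 7.9 to 15.2 CPM in KO. Camp had 0 counts in all 6 PBS libraries and 0.228 to 0.798 CPM with LPS. The part of these cells in the Lcn2 values was not tested.

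Promoters were searched for 2 motifs in the RefSeq windows of GRCm38.p6 that run from 250 bases before to 50 after each start site, on both strands. The κB consensus, a site of NF-κB, was in 8.46% of 32851 windows and in 2 of the 9 windows found for 7 members. These were the windows of Steap4, with GGGATGCCCC from 250 bases before the start and GGGGTTTTCC on the opposite strand from 226 bases before it, and of Ftl1, with GGGGCACCCC from 15 bases before it. The antioxidant response element core, TGACNNNGC, was in 12.4% of all windows and in 0 of the 9. Slc40a1, Hmox1 and Slc11a2 were not searched. Steap4 rose and Ftl1 fell with LPS, and factor binding was not measured.

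Among the members, 1 gene acts in heme breakdown. Hmox1 (gene 15368, chr8:75093621-75100589) encodes heme oxygenase 1, which opens the heme ring and frees its iron. It stood at 442, 431 and 448 CPM in WT PBS and 289, 323 and 332 CPM in WT LPS. In KO PBS it stood at 438, 443 and 424 CPM, and in KO LPS at 483, 521 and 463 CPM. The PBS groups overlapped, and with LPS the WT libraries lay below every other group and the KO libraries above. With LPS, Hmox1 fell by 0.48 ± 0.0619 in WT (SE, adjusted p = 2.07e-06). In KO it rose by 0.17 ± 0.0616 (adjusted p = 0.0202), but fell under the upper-quartile scaling (-0.19) and with totals alone (-0.63). That call was also lost, at 0.12 to 0.16, with other filters and without KO PBS replicate 1, KO PBS replicate 3 or KO LPS replicate 2.

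The difference between the labels in Hmox1 did not depend on those settings. Under LPS it was higher in KO by 0.63 ± 0.0621 (SE, adjusted p = 1.10e-06), a 1.55-fold difference that lay between 0.54 and 0.67 on the log2 scale in all 22 fits. The interaction was 0.65 ± 0.0873 (adjusted p = 0.000105) and passed in all 21 fits that gave it, at 0.51 to 0.69. Under PBS the difference was -0.016 (95% interval -0.15 to 0.11, adjusted p = 0.88). Of 8 red cell markers, 6 were in the table, and they summed to at most 0.597 CPM in any library, with Hba-a2, Hbb-bs, Hbb-bt and Alas2 at 3 counts or fewer throughout.

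Export showed the largest fall. Slc40a1 (gene 53945, chr1:45908068-45926523) encodes ferroportin, the only known iron exporter of mammalian cells. It stood at 4.45, 4.44 and 3.79 CPM in WT PBS and at 7.81, 6.28 and 6.31 CPM in KO PBS. With LPS, 0.0578, 0.342 and 0.226 CPM remained in WT, from 1, 6 and 4 counts, and 0.123, 0.367 and 0.56 CPM in KO, from 2, 6 and 9 counts. Under PBS the KO libraries lay above the WT libraries, and under LPS the labels overlapped. The change with LPS was -4.30 ± 0.327 in WT (SE, adjusted p = 2.64e-09) and -4.26 ± 0.277 in KO (adjusted p = 2.79e-10). From the summed counts it was 20.2-fold lower in WT (exact 95% counting interval 11.1 to 40.8) and 19.5-fold lower in KO (12.1 to 33.7).

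Slc40a1 was higher in KO under PBS by 0.69 ± 0.152 (SE, adjusted p = 0.00361), a 1.61-fold difference. Under LPS the difference was 0.72 with a 95% interval of -0.56 to 2.0 (adjusted p = 0.363), and sums of 11 and 17 counts could not show a difference of the size seen under PBS. The interaction was 0.037 (95% interval -0.95 to 1.02, adjusted p = 0.972).

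Aco1 (gene 11428, chr4:40143081-40198338) encodes iron regulatory protein 1, which is an aconitase when it carries an iron-sulphur cluster and binds IREs when it does not. It stood at 92.8, 88 and 88.4 CPM in WT PBS and 38.7, 33.1 and 32.9 CPM in WT LPS. In KO PBS it stood at 78.2, 76.8 and 82.8 CPM, and in KO LPS at 28.4, 27.5 and 31.6 CPM. No 2 groups overlapped, in the same order of groups as Tfrc. The change of Aco1 with LPS was -1.36 ± 0.0727 in WT (SE, adjusted p = 2.22e-11) and -1.44 ± 0.0742 in KO (adjusted p = 1.13e-11). The KO label gave -0.26 ± 0.0774 under LPS (adjusted p = 0.0129) and -0.18 ± 0.0683 under PBS, which did not pass (adjusted p = 0.0662). The LPS call was lost, with adjusted p of 0.0522 to 0.054, when WT LPS replicate 1 (-0.18) or either of KO LPS replicates 1 (-0.24) and 2 (-0.22) was left out. The PBS difference was called under the upper-quartile scaling, in a fit to the 6 PBS libraries alone and without WT LPS replicate 1, at -0.20 to -0.18.

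To ask how many of the iron genes differed by label, the calls were counted. Under PBS, 1 of the 10 members was higher in KO (Slc40a1) and 3 were lower (Tfrc, Slc11a2 and Steap4), against 12.3% higher and 13.0% lower among all genes tested. Under LPS, 2 were higher (Hmox1 and Lcn2) and 2 lower (Tfrc and Aco1), against 22.1% and 19.3%. Tfrc was the member called under both treatments. These comparisons share no library, but the spread used for both was estimated from all 12 libraries, so they are not separate tests. In the interaction, 3 members had the more positive LPS change in KO (Slc11a2, Hmox1 and Steap4) and 1 the more negative (Tfrc), against 9.78% and 8.26% of all genes. Slc11a2 and Steap4 had lower KO levels under PBS and overlapping levels under LPS, whereas Hmox1 overlapped under PBS and differed under LPS. The interaction, the LPS responses and the label comparisons are drawn from the same 12 libraries, so these counts are not independent of each other.

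Markers of cell types moved with the label as well, and their part in the differences of the iron genes was not tested. All 5 skeletal muscle markers (Acta1, Myh4, Ckm, Tnnt3 and Mb) were lower in KO under LPS, where they summed to 27.4 to 33.7 CPM in WT and 0.123 to 0.249 in KO, with Myh4, Tnnt3 and Mb at 0 in KO. Of the 8 macrophage markers, Mertk (-1.24, adjusted p = 1.91e-09), Csf1r (-0.53, adjusted p = 0.00115) and Cd68 (-0.21, adjusted p = 0.00377) were lower and Cd14 (0.68, adjusted p = 6.47e-07) higher in KO under LPS, while under PBS Adgre1 (-0.33, adjusted p = 0.000217) was lower and Cd14 (0.20, adjusted p = 0.0378) higher. The 7 markers of resident peritoneal macrophages were all in the table, and their sum, mostly Cd9, was 745 to 778 CPM in WT PBS, 852 to 894 in KO PBS, 703 to 834 in WT LPS and 772 to 878 in KO LPS. The single markers went in both directions. Under PBS, Gata6, Timd4 and Selp (-0.86, adjusted p = 0.045) were lower in KO and Icam2 (0.50, adjusted p = 0.0187) and Cd9 (0.20, adjusted p = 0.0384) higher, and under LPS Gata6, Timd4 and Prg4 (-0.33, adjusted p = 0.0284) were lower. Gata6 gave -1.30 under PBS (adjusted p = 0.000201) and -1.06 under LPS (adjusted p = 0.00469), and Timd4 gave -1.93 (adjusted p = 0.0115) and -2.21 (adjusted p = 1.50e-06), with no value of either above 7.78 CPM in any library.

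Lists of scarcer cells also held genes that differed by label. Kit, of the mast cell list, was lower in KO under PBS (-1.39, adjusted p = 0.00449) and higher under LPS (1.54, adjusted p = 6.25e-05), with an interaction of 2.94 (adjusted p = 9.77e-05), while the other 4 genes of that list (Cma1, Mcpt4, Tpsb2 and Cpa3) had at most 3 counts in every library. In the mesothelium list, Wt1 was lower in KO under PBS (-1.61, adjusted p = 0.000141) and LPS (-1.46, adjusted p = 0.000718) and Upk3b under PBS (-1.11, adjusted p = 0.0467), and the 6 genes summed to 9.08 to 9.72 CPM in WT PBS, 4.85 to 7.21 in KO PBS, 9.19 to 11.2 in WT LPS and 6.08 to 9.02 in KO LPS. Lck, of the T cell list, was lower in KO under LPS (-1.37, adjusted p = 1.00e-05), with Cd3e, Cd3d and Cd3g at 3 counts or fewer throughout. Siglecf, of the eosinophil list, was lower in KO under LPS (-0.86, adjusted p = 0.022), and Zbtb46, of the dendritic cell list, under PBS (-1.07, adjusted p = 0.0169).

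**Figure D4:**
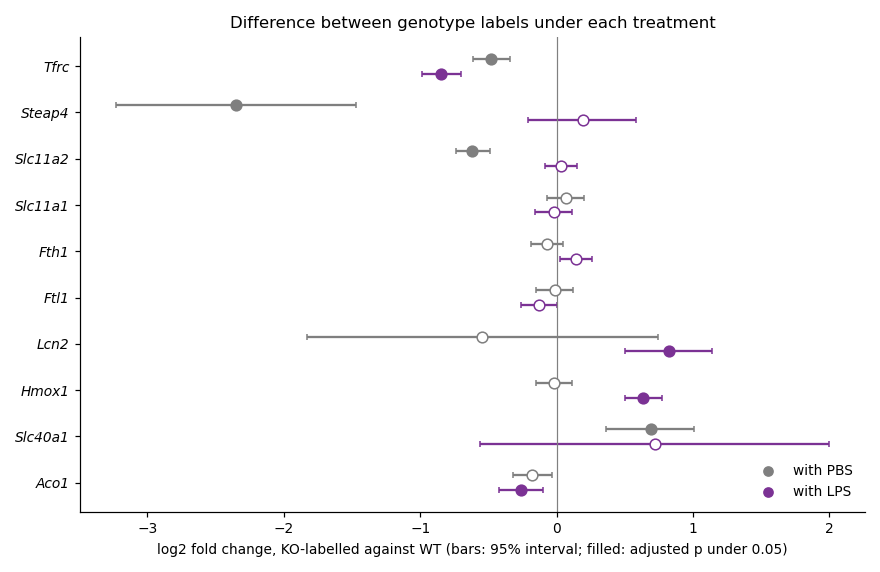
Log2 fold change of each iron gene between KO-labelled and WT libraries with PBS (grey) and with LPS (purple), with bars for the 95% interval and filled points where the adjusted p was under 0.05. Steap4 has the lowest value, -2.35 with PBS, Tfrc is below 0 under both treatments, and Hmox1 and Lcn2 are above 0 with LPS.

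Levels were also compared between genes as CPM per kilobase of 1 GENCODE transcript per gene. In WT PBS the order was Ftl1 (17109 ± 176, SD, n = 3), Fth1 (12567 ± 481), Slc11a1 (300 ± 8.32), Hmox1 (280 ± 5.34), Tfrc (54 ± 1.77), Slc11a2 (30.8 ± 0.614), Aco1 (23.4 ± 0.693), Slc40a1 (1.25 ± 0.112), Lcn2 (0.601 ± 0.124) and Steap4 (0.33 ± 0.11). No neighbours in this order overlapped. In WT LPS, Fth1 (25083 ± 855) came before Ftl1 (15026 ± 74.5), Lcn2 (353 ± 48) and Slc11a1 (311 ± 32.3) overlapped in the next places, and Slc40a1 (0.0618 ± 0.0423) came last. KO PBS had the order of WT PBS except that Aco1 (20.7 ± 0.815) and Slc11a2 (20.1 ± 1.12) overlapped. KO LPS opened with Fth1 (27617 ± 874), Ftl1 (13741 ± 1351) and Lcn2 (623 ± 68.4), and Hmox1 (311 ± 18.8) and Slc11a1 (306 ± 5.78) overlapped.

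A further 65 genes of iron and heme biology were listed by role, of which 63 were in the table and 53 were tested. With LPS, 21 were higher and 27 lower in WT, and 19 higher and 28 lower in KO. By the KO label, 7 were higher and 12 lower under PBS, and 10 higher and 22 lower under LPS. The balance with LPS moved with the scaling, to 12 higher and 35 lower in WT and 11 and 36 in KO with totals alone, and by label under PBS to 10 higher and 9 lower. Without WT PBS replicate 3, the count under PBS fell to 4 higher and 7 lower. In the interaction, 7 were higher and 12 lower, and this count fell to 11 or 12 in all when WT PBS replicate 3, or KO replicate 2 with PBS or 1 with LPS, was left out. The shares of all genes given above are the background for the TMM counts. With totals alone, 2223 of the 12064 genes tested were higher and 8247 lower with LPS in WT, 2202 and 8387 in KO, and 1991 and 1241 by label under PBS.

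Among genes of export, Cp, the ferroxidase ceruloplasmin that works with ferroportin, rose with LPS from 0.398, 0.715 and 0.536 CPM to 56.2, 66.9 and 64 CPM in WT, or 6.81 ± 0.141 on the log2 scale (SE, adjusted p = 7.00e-17). In KO it rose by 6.37 ± 0.14 (adjusted p = 1.12e-16). Flvcr1, a heme exporter, was lower with LPS, at -3.03 ± 0.0701 in WT (adjusted p = 2.74e-16) and -2.94 ± 0.0693 in KO (adjusted p = 2.86e-16), from a mean of 123 to 15.1 CPM and from 136 to 17.8 CPM. Hamp, the gene of the ferroportin-blocking hormone hepcidin, was named after its values were seen. It had 0 counts in all 6 PBS libraries and 49, 66 and 71 counts in WT LPS and 69, 52 and 45 in KO LPS, which makes it at least 32.8-fold and 32.3-fold higher against 3 counts per library. Rnf217, a ubiquitin ligase of ferroportin, rose with LPS in WT (0.77, adjusted p = 1.81e-06; 0.11 with totals alone) and gave -0.18 in KO (adjusted p = 0.122; -0.98 with totals alone), with an interaction of -0.95 ± 0.143 (adjusted p = 0.000264).

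Among genes of uptake, Steap3, the endosomal ferrireductase of the transferrin cycle, had the same order of groups as Tfrc. It stood at 166 ± 5.91 CPM (SD, n = 3) in WT PBS, 123 ± 1.78 in KO PBS, 30 ± 4.39 in WT LPS and 12.1 ± 1.38 in KO LPS. Its LPS change was -2.47 ± 0.089 in WT (SE, adjusted p = 9.62e-14) and -3.35 ± 0.0983 in KO (adjusted p = 5.17e-15), with an interaction of -0.88 ± 0.131 (adjusted p = 0.000252). Under LPS, KO against WT gave -1.31 ± 0.102 (adjusted p = 1.04e-07). Slc39a14, a transporter of iron not bound to transferrin, rose by 2.33 in WT (adjusted p = 4.93e-13) and 3.39 in KO (adjusted p = 3.81e-15), with an interaction of 1.06 ± 0.133 (adjusted p = 5.78e-05). Of the 8 uptake and reduction genes tested, 5 were lower and 0 higher in KO under PBS, against 13.0% lower and 12.3% higher among all genes, and 4 were lower and 1, Slc39a14, higher under LPS, against 19.3% and 22.1%. Both counts of lower genes include the scarce Steap1 and Steap2. Steap1 had means of 0.849 CPM in WT PBS, 0.469 in KO PBS, 1.31 in WT LPS and 0.513 in KO LPS. Those of Steap2 were 1.22, 0.644, 2.22 and 1.27 CPM.

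In ferritin turnover, Ncoa4, the receptor that delivers ferritin for breakdown, was named after its values were seen and was among the 3 genes tested. Its mean was 466 ± 9.73 CPM (SD, n = 3) in WT PBS and 98.5 ± 6.69 in WT LPS, a change of -2.24 (adjusted p = 1.88e-15), and the change in KO was -2.34 (adjusted p = 9.56e-16). The other two, the iron chaperones Pcbp1 (0.45 in WT and 0.48 in KO) and Pcbp2 (0.63 and 0.76), were called higher with LPS, but with totals alone their values were -0.21 and -0.32, and -0.032 and -0.045. Of the 4 sensing genes, Fbxl5 and Hif1a rose and Epas1 fell with LPS under both labels. Ireb2, which encodes iron regulatory protein 2, rose by 0.66 in WT and 0.83 in KO, but by -0.0034 and 0.027 with totals alone. Epas1, which encodes HIF-2α, was lower in KO, at -0.57 ± 0.118 under PBS (SE, adjusted p = 0.00323) and -0.85 ± 0.129 under LPS (adjusted p = 0.000154).

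Of the 21 genes tested for mitochondrial iron, heme synthesis and iron-sulphur clusters, 4 were higher and 13 lower with LPS in WT, against 36.5% and 40.2% of all genes. In KO 4 were higher and 15 lower, against 38.8% and 41.1%, and the list was not tested against other genes. Slc25a37, or mitoferrin 1, which imports iron into mitochondria, and Alas1, which makes the first committed step of heme synthesis, were among those that rose. Slc25a37 went from a mean of 15.7 to 120 CPM in WT (2.93 ± 0.0621, SE, adjusted p = 9.03e-17) and from 19 to 213 CPM in KO (3.48 ± 0.062, adjusted p = 9.15e-18). It was higher in KO under LPS by 0.82 ± 0.0553 (adjusted p = 2.07e-08). Under LPS, 11 of the 21 were lower in KO and 1, Slc25a37, was higher, against 19.3% and 22.1% of all genes.

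Alas1, like Slc11a2, was lower in KO under PBS and overlapped between the labels under LPS. It stood at 150 ± 1.18 CPM (SD, n = 3) in WT PBS and 89.1 ± 1.9 in KO PBS, and 615 ± 42.7 in WT LPS and 658 ± 11 in KO LPS. The KO label gave -0.75 ± 0.0568 under PBS (SE, adjusted p = 1.48e-07), and the interaction was 0.84 ± 0.0793 (adjusted p = 3.92e-06). Under PBS, Ppox, an enzyme of heme synthesis, was higher in KO by 0.36 ± 0.0844 (adjusted p = 0.00503).

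Of the 8 genes tested for heme import, breakdown and export, 3 were called higher and 5 lower with LPS under each label, against 36.5% and 40.2% of all genes in WT and 38.8% and 41.1% in KO, although with totals alone Hmox2 and Blvrb, called higher, turned lower under both labels. Hp, or haptoglobin, which binds free hemoglobin, rose by 2.12 in WT (adjusted p = 4.99e-09) and 2.92 in KO (adjusted p = 9.04e-11), with an interaction of 0.80 ± 0.195 (SE, adjusted p = 0.0125). It was higher in KO under LPS by 1.11 ± 0.13 (adjusted p = 1.83e-05). Slc46a1, a carrier of folate that also takes up heme, was lower with LPS, at -1.02 in WT (adjusted p = 3.27e-05) and -2.04 in KO (adjusted p = 4.93e-07). Its interaction of -1.02 ± 0.305 (adjusted p = 0.0293) was lost without any 1 of 5 libraries, at -0.99 to -0.82.

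**Figure D5:**
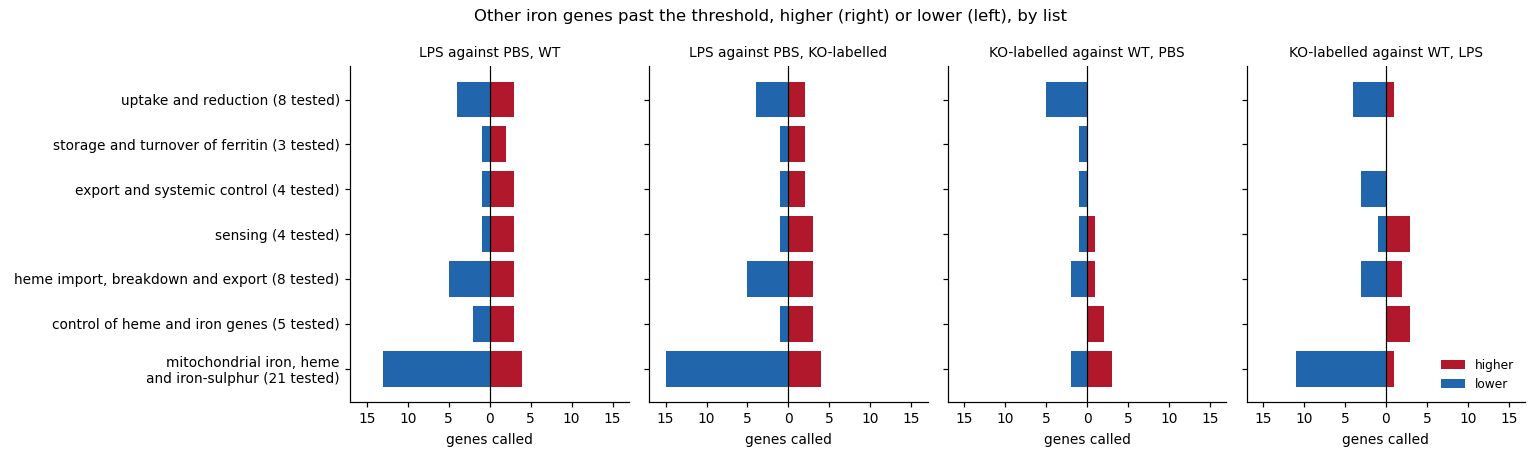
Number of other iron genes called higher (red, right) or lower (blue, left) in each role list, for LPS against PBS under each label and for KO-labelled against WT under each treatment, with the number tested in brackets. In the mitochondrial list, 13 genes are lower with LPS in WT and 15 in KO, and 11 are lower in KO-labelled libraries with LPS.

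The genes whose log2 CPM was most like that of 3 members over the 12 libraries were listed as a description. For Slc40a1 these were Cped1 (Pearson r = 0.9941), Snx32 (0.9926) and Abcd2 (0.9921), the only 3 genes above 0.99. For Tfrc they were Gas6 (0.9950), Prune2 (0.9932) and Colgalt1 (0.9924), of 8 genes above 0.99. For Lcn2 they were Ifi206 (0.9993), Fpr1 (0.9990) and Slfn1 (0.9983), of 531 genes above 0.99. The 12 points share 2 treatments, and most of each correlation lies between PBS and LPS libraries.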

How the data were processed

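RNA of 12 macrophage libraries was sequenced as single-end reads on a BGISEQ-500 instrument. The authors deposited expected counts (estimated counts per gene, not scaled between libraries) for 16920 genes. The submitters' processing notes name Bowtie2, RSEM 1.3.1 and GRCm38.p6, whereas the methods of the study name STAR and HTSeq. Between 24.6% and 26.9% of values per library carried decimals, and values were rounded before the tests. Differential expression was tested with edgeR 4.0.16 in R 4.3.3 (filterByExpr, TMM scaling, robust quasi-likelihood F test, 4 group means, all 12 libraries), with two-sided p-values adjusted by the Benjamini-Hochberg method over the 12064 genes tested and a threshold of 0.05. CPM uses TMM-scaled library sizes, and log2 CPM a prior count of 2. SE is that of the log2 fold change. Counting intervals are exact binomial at 95%, and they and the floor of 3 counts cover counting error only. The 10 members were all named, whatever their values. From the list of other iron genes, the 6 largest calls in the interaction were named at any level, and, per pairwise contrast, the 2 largest rises and 2 largest falls among genes with at least 5 CPM on average in the higher group. An item that this rule selects is not reported here. The members and lists were chosen with earlier results of these data known. Lengths and positions came from GENCODE M21 (GRCm38), and promoter windows from RefSeq (GRCm38.p6). Gene numbers matched the RefSeq table for 16803 of 16920 genes. In a simulation of 11839 genes, 200 of them shifted by 1 on the log2 scale, edgeR recovered 95.5% for KO against WT under LPS and 91% for the interaction. The alternatives were RLE, upper-quartile and totals scalings, 2 other filters, DESeq2 1.42.0, fits to the groups compared only, counts not rounded, the replicate number as a block, and leaving out each library.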

Additional observations from a re-analysis of the deposited data

Results flagged for a closer look

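The response to LPS differed between the genotype labels for 4 members by the interaction term of the edgeR fit, given as the log2 change in KO minus that in WT. The values were 2.54 for Steap4, 0.65 for Slc11a2, 0.65 for Hmox1 and -0.37 for Tfrc. Among the other iron genes named, the same term passed for Slc39a14 (1.06), Alas1 (0.84), Hp (0.80), Fbxl5 (0.56), Slc25a37 (0.55) and Hif1a (0.34), whose rise with LPS was larger in KO, and for Steap3 (-0.88), Slc46a1 (-1.02) and Ppox (-0.52), whose fall was larger in KO. The call of Hif1a was lost with totals alone (0.20, adjusted p = 0.17). For Rnf217 it was -0.95, at 0.77 in WT and -0.18 in KO. These terms compare the labels, since Ythdf1 mRNA was not lost in the libraries labelled KO.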

How the results depend on the processing

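Of 1024 recomputed log2 values of the members, 974 kept their direction and their side of the threshold, 10 lost a call, 13 gained one and 27 changed sign. When at least 10 counts were required in every library, Slc40a1, Lcn2 and Steap4 were removed. The count of members called then fell from 9 to 5 for LPS in KO, where the call of Hmox1 (0.12, adjusted p = 0.0828) was lost as well, and from 4 to 2 for KO against WT under PBS. Values that changed sign under scaling were, for upper quartile and totals, LPS in WT for Slc11a1 (-0.26 and -0.61), LPS in KO for Hmox1 (-0.19 and -0.63), KO against WT under LPS for Slc11a2 (-0.038 and -0.059) and the interaction for Slc40a1 (-0.0095 and -0.10). KO against WT under PBS changed sign for Ftl1 (0.0046 with RLE and DESeq2, 0.036 with totals) and Hmox1 (0.00036 with RLE and DESeq2, 0.032 with totals). The calls lost with other settings were those of Ftl1 for LPS in WT and of Hmox1 for LPS in KO. The cause was not tested.

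When 1 library was left out, signs changed for Slc40a1 in the interaction (-0.46 to 0.57), for Slc11a1 with LPS in WT (-0.035 to 0.11) and by label under LPS (-0.084 to 0.063), and by label under PBS for Ftl1 (-0.018 to 0.042) and Hmox1 (-0.031 to 0.024). The members called then numbered 8 to 9 for LPS in WT and in KO, 4 to 5 by label under PBS, 3 to 4 under LPS and 4 to 5 in the interaction. With totals alone, 21.2% of all calls with LPS in WT and 20.8% in KO were higher, against 47.6% and 48.6% with TMM, and the share moved from 48.6% to 61.6% by label under PBS, from 53.4% to 37.9% under LPS and from 54.2% to 24.4% in the interaction. The upper-quartile share was 32.5% for LPS in WT, 33.8% in KO, 42.2% by label under PBS, 41.6% under LPS and 43.1% in the interaction.

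With the replicate block, 9 members were called for LPS in WT, 9 in KO, 4 by label under PBS, 4 under LPS and 4 in the interaction, as without it. Deviations of same-numbered libraries correlated by -0.0758 to 0.127 (18 pairs), and those of differently numbered libraries by -0.182 to 0.17 (36 pairs). Values this low cannot show whether the replicate numbers pair the libraries. A sum of each ferritin gene with its copies could not be formed, because no row under their names was used here. Depth limits Slc40a1 with LPS and Steap4 and Lcn2 with PBS.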
